A study of Mus musculus with 77 samples.

Results

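Sohlh1, Sohlh2, Dmrt1, Dmrtb1, Sox3, Neurog3 and Taf4b are 7 genes for transcription factors or their cofactors that act in mouse spermatogonia, the mitotic germ cells of the testis. They were taken by name from 19938 genes measured on 77 arrays. Each had 1 probe set listed with that gene alone, and all 7 were tested. The study drew RNA from testes of neonatal mice in 3 Cre lines that carry RiboTag, an allele of a ribosomal protein that gains an epitope tag where Cre acts. Immunoprecipitated (IP) RNA is what came down with the tagged ribosomes, and total RNA is that of the whole testis. The Ngn3-Cre:RiboTag line (C57BL/6) gave 4 IP and 4 total arrays, labelled 0 and 4h after retinoic acid (RA). The Stra8-Cre:RiboTag line (FVB/N) gave 16 IP and 23 total arrays, with the time labels 0, 4h, 12h, 24h and 48h, then 4d, 6d and 8d. The Amh-Cre:RiboTag line (FVB/N) gave 16 IP arrays at the same labelled times and 14 total arrays, with total RNA at 4h not analysed here. Every animal, those at time 0 included, had first been given BDAD, a bis-dichloroacetyl diamine that blocks RA synthesis, for 9 days, so time 0 is an RA-depleted testis and not an untreated one. Of the 35 groups 31 held 2 arrays, Stra8 total held 3 at 4h and 4 each at 0, 24h and 48h.

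Ngn3 (the older name of Neurog3) and Stra8 regulatory sequences drive Cre in germ cells, and those of Amh drive it in Sertoli cells, the supporting cells of the seminiferous tubule. The tag is permanent, so a germ cell tagged as a spermatogonium stays tagged in its later stages. Nothing in the labels says whether replicates came from separate animals or pools, so the p-values measure only the spread between these samples. Line and strain cannot be told apart for Ngn3. The labels give no ages, and no array came from a later time without RA. Changes over the courses therefore cannot be assigned to RA rather than to age or to time since BDAD.

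On GRCm38.p6 the genes lie at chr2:25842995-25847248 (Sohlh1), chr3:55182044-55209957 (Sohlh2), chr19:25505618-25604328 (Dmrt1), chr4:107676288-107704011 (Dmrtb1), chrX:60891366-60893430 (Sox3), chr10:62133090-62134763 (Neurog3) and chr18:14783201-14960424 (Taf4b).

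Spermatogonia begin as an undifferentiated pool and are committed by RA to differentiate, divide a fixed number of times and enter meiosis. Sohlh1 and Sohlh2 encode germ cell basic helix-loop-helix proteins that are needed for that commitment in mice and can pair with each other. Dmrt1, a DM domain factor made in both spermatogonia and Sertoli cells, restrains premature meiotic entry in mouse spermatogonia, and its relative Dmrtb1 (also called Dmrt6) is needed for differentiating spermatogonia to leave the mitotic programme in an orderly way. Sox3 is an X-linked HMG box factor of spermatogonia, Neurog3 is a basic helix-loop-helix factor of progenitors about to differentiate, and Taf4b is a gonad-enriched subunit of the general transcription factor TFIID.

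RefSeq promoters of GRCm38.p6 were matched for 4 of the 7. The 250 bases before the start are shown because these genes averaged higher in germ cell (Stra8) IP than in Sertoli cell (Amh) IP. A further reason is that 3 of the members are themselves helix-loop-helix factors, the class that binds E-boxes (CANNTG on either strand, read here on both). Capitals mark CACGTG, the palindromic E-box, in Sohlh1, and any CANNTG in the others. The windows are chr2:25847249-25847498 on the minus strand, chr3:55181794-55182043 on the plus strand, chr4:107684231-107684480 on the minus strand (the more upstream of 2 Dmrtb1 starts) and chr10:62132840-62133089 on the plus strand. The windows of Sohlh1, Sohlh2 and Neurog3 abut the gene limits given above, and that of Dmrtb1 lies within them. The window of the other Dmrtb1 start, chr4:107683590-107683839, held 3 CANNTG and is not shown.
Sohlh1: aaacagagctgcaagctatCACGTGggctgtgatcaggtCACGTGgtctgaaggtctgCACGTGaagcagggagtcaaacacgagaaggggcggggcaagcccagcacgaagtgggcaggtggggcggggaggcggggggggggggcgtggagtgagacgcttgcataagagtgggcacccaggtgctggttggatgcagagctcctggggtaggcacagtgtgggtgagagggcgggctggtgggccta
Sohlh2: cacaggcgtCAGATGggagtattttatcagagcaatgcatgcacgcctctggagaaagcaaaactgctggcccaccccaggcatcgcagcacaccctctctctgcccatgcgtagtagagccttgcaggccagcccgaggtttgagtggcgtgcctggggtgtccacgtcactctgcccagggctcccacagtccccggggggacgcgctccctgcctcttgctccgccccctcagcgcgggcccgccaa
Dmrtb1: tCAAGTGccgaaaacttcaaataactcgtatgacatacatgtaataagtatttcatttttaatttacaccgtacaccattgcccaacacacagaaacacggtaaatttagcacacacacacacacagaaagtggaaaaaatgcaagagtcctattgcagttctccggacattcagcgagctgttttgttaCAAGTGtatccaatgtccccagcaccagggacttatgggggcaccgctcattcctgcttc
Neurog3: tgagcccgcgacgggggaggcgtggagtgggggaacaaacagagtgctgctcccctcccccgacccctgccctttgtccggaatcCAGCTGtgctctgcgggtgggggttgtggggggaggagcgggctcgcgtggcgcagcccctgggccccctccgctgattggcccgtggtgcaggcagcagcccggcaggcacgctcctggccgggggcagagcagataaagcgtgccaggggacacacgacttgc

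Sohlh1 held 3 CACGTG, whose first bases lay at -231, -211 and -192 from the start. At least 3 copies stood in 20 of 32851 promoter windows of that length (0.0609%), and at least 1 copy in 6.02%. All 3 are also CANNTG, of which Sohlh1 held 5. AGGTCA, the half-site of retinoic acid receptors, stood in the Sohlh1 window at -215, overlapping the CACGTG at -211, and in 14.0% of all windows. Sohlh2 held 1 CANNTG (-241), Neurog3 1 (-165) and the upstream Dmrtb1 window 2 (-249 and -60), where 66.2% of all windows held at least 1. The DMRT core ACATTGT and the SOX core ACAATG, each read on both strands, were in none of these windows and in 2.56% and 10.7% of all. A match of letters is no site, and binding was not measured.

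Values are RMA intensities as deposited, on a log2 scale on which a difference of 1 is 2-fold. Calls, here and below, needed both a 2-fold difference and an adjusted p under 0.05 (limma on all arrays, Benjamini-Hochberg over the 19938 genes). Differences are given with the SE of that fit, and the number of arrays limits how precise they are. Array medians ran from 252.6 to 300.5 intensity units, and arrays of a group correlated with r between 0.958 and 0.999 over genes. IP RNA had the marker levels its labels imply. Germ cell markers (14 measured) averaged 11.64 to 11.83 per array in Ngn3 IP, 10.93 to 11.65 in Stra8 IP and 7.90 to 8.84 in Amh IP. Sertoli cell markers (17 measured) averaged 9.83 to 10.03 in Ngn3 IP, 9.02 to 10.97 in Stra8 IP and 12.13 to 12.38 in Amh IP. No marker can be read as absent on this array.

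Some arrays went against their time labels. Over the 1000 genes used for the check, Stra8 total replicates 2 and 3 labelled 4h correlated best with Stra8 total at 4d (r = 0.618 and 0.677), against 0.170 and 0.329 with the rest of their own label. Among the Stra8 total groups, replicate 1 of that label correlated best with time 0 (0.629), and at -0.352 with the rest of its label. Set against the Amh total groups, it correlated best with those labelled 4d (0.733). Its Rarb, a direct RA target, read 8.52, against 6.98 and 6.99 in replicates 2 and 3 and 7.04 to 7.32 over the 4 arrays at 0. In the Amh line Rarb read 8.58 and 8.56 in IP labelled 4d, against 7.18 and 7.16 in IP labelled 4h and 7.07 and 7.02 at 0. In Stra8 IP, Rarb was 9.28 and 9.21 at 4h. Stra8 IP replicate 1 at 24h correlated best with 48h (0.608, against 0.470 with its own label), and Amh IP replicate 2 at 6d with 8d (0.758, against 0.642). Leaving out either of these arrays gained or lost no call of the 7 genes. Stra8 total at 4h and the Amh arrays labelled 4h and 4d are kept under their labels here. Calls of the 7 genes that changed without them are given both ways. With the Stra8 total arrays left out the Stra8 total course still had 4 calls, and with the Amh arrays left out the calls numbered 3 in Amh IP versus total, 6 in Stra8 IP versus Amh IP, 0 in the Amh IP course and 3 in the Amh total course, as with them. Dmrtb1 was 7.42, 10.81 and 11.10 in the Stra8 total arrays labelled 4h, which raises the spread of that gene in every test: its residual SD over all arrays was 0.547, and 0.324 without them. The residual SD of the other members was larger with those arrays too. It was 0.206 for Taf4b (0.130 without them), 0.245 for Sohlh2 (0.178), 0.163 for Sohlh1 (0.121) and 0.0995 for Dmrt1 (0.0670). For Sox3 it was 0.131 (0.108) and for Neurog3 0.2375 (0.2316). SEs and adjusted p-values of all 7 genes include those arrays unless said otherwise.

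Ribosome-bound RNA of germ cells was rich in these factors. In Stra8 IP, 3 of the 7 were called higher than in total RNA, namely Sohlh1, Sohlh2 and Sox3, where 3.84% of all genes were called higher. The other 4 were between 1.72-fold and 1.97-fold higher and did not reach the 2-fold minimum. In bulk RNA, fewer cells of a type and less RNA per cell cannot be told apart.

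Sohlh1 ranged from 10.29 to 11.67 over the 16 Stra8 IP arrays (median 11.02), against 8.96 to 10.14 over the 23 total arrays (median 9.73). No IP array overlapped a total array. The share of all genes without such overlap was not counted for this comparison, nor for Amh IP versus total below. The difference was 1.44 ± 0.05 (adjusted p = 2.98e-29). Sohlh2 ranged from 10.19 to 11.69 in Stra8 IP (median 11.07), against 8.36 to 10.58 in total RNA (median 9.56). The fractions overlapped across times, with total RNA at 6d (10.48 and 10.58) in the range of IP RNA at 4d (10.19 and 10.57) or just above it. Its difference was 1.46 ± 0.08 (8.39e-23).

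Sox3 ranged from 10.09 to 11.12 in Stra8 IP (median 10.64), against 9.05 to 9.73 in total RNA (median 9.34), without overlap, a difference of 1.25 ± 0.04 (adjusted p = 4.40e-30). Neurog3 averaged 9.94 in Stra8 IP and 8.96 in total RNA, a difference of 0.98 ± 0.08, just under the minimum. Taf4b averaged 11.96 and 11.02 (0.94 ± 0.07), and Dmrt1 12.15 and 11.37 (0.78 ± 0.03), IP before total. Dmrtb1 averaged 9.49 in Stra8 IP and 8.64 in total RNA (0.85 ± 0.17). Without the Stra8 total arrays labelled 4h its difference was 1.25 and it was called (adjusted p = 9.66e-15).

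The Ngn3 tag gave the same order of fractions in all arrays. For each of the 7 genes all 4 IP arrays lay above all 4 total arrays, where 31.9% of all genes did so, and 5 were called higher, where 6.18% of all genes were. Sohlh1 read 11.66 and 11.66 at 0 and 11.49 and 11.65 at 4h in Ngn3 IP, against 9.90 and 9.74 at 0 and 9.62 and 9.69 at 4h in total RNA, a difference of 1.88 ± 0.11 (adjusted p = 1.35e-19). Sohlh2 differed by 1.82 ± 0.17 (1.22e-13), Sox3 by 1.64 ± 0.09 (2.27e-20), Dmrtb1 by 1.55 ± 0.36 (2.23e-04) and Taf4b by 1.18 ± 0.14 (2.25e-10). Neurog3, whose regulatory sequence drives the Cre of this line, differed by 0.97 ± 0.16, and Dmrt1 by 0.76 ± 0.07.

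Amh IP, the Sertoli cell fraction, gave the opposite picture for the helix-loop-helix genes. Sohlh1, Sohlh2 and Neurog3, 3 of the 7, were called lower than in Amh total RNA over the 7 times with both fractions, where 3.94% of all genes were called lower. Sohlh2 ranged from 7.29 to 8.17 in the 16 Amh IP arrays (median 7.81), against 9.07 to 10.26 in the 14 total arrays (median 9.68), without overlap, and differed by -1.93 ± 0.09 (adjusted p = 6.69e-25). Sohlh1 ranged from 8.27 to 8.82, against 9.31 to 10.40, also without overlap (-1.34 ± 0.06, 3.76e-25). Neurog3 ranged from 7.46 to 8.63, against 7.84 to 10.08, and differed by -1.14 ± 0.09 (1.15e-16). With each array centred on its median the Neurog3 difference was -0.997 and was not called.

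Dmrt1 was the member whose level in Sertoli cell IP stood closest to that of the whole testis. It averaged 11.59 in Amh IP and 11.45 in Amh total RNA, a difference of 0.14 ± 0.04 (adjusted p = 9.61e-04), and its sign varied by time, from 0.58 ± 0.10 at 8d to -0.11 ± 0.10 at 6d. Sox3 differed by -0.25 ± 0.05, Taf4b by -0.68 ± 0.07 and Dmrtb1 by -0.31 ± 0.19 (adjusted p = 0.145). The germ cell markers of Amh IP are given above, and their part in the levels of the 7 genes there was not tested.

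**Figure D1:**
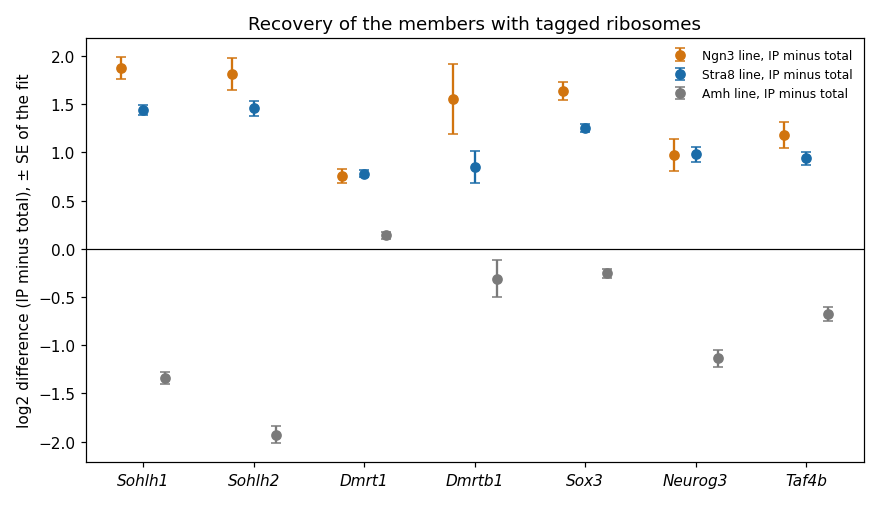
Log2 difference, IP minus total RNA, for each of the 7 genes in the Ngn3, Stra8 and Amh lines, as means over the times with both fractions with bars of 1 SE of the fit. All Ngn3 and Stra8 points lie above 0, and in the Amh line 6 lie below it and Dmrt1 lies at 0.14.

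Set directly against each other, the germ cell and Sertoli cell fractions differed for 6 of the 7, all called higher in Stra8 IP than in Amh IP, where 7.54% of all genes were. Sohlh2 differed most, 10.99 in Stra8 IP and 7.76 in Amh IP (3.23 ± 0.08, 9.38-fold, adjusted p = 1.38e-36). Sohlh1 differed by 2.44 ± 0.06, Neurog3 by 1.97 ± 0.08, Dmrtb1 by 1.55 ± 0.18, Taf4b by 1.43 ± 0.07 and Sox3 by 1.36 ± 0.05. For Sohlh1, Sohlh2, Sox3, Neurog3 and Taf4b every Stra8 IP array lay above every Amh IP array, where 10.7% of all genes did so. Neurog3 came nearest, with 8.72 as its lowest Stra8 IP value and 8.63 as its highest Amh IP value. Dmrt1, at 12.15 and 11.59, differed by 0.55 ± 0.04 (5.23e-20) and was not called, being 1.47-fold higher.

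Some relatives of these genes also differed between the germ cell and Sertoli cell fractions, and most did not reach a call. Of 20 TFIID subunits and relatives 6 were called higher in Stra8 IP than in Amh IP, led by Taf7l, a germ cell paralog of Taf7 (3.69 ± 0.09), and Taf9b (2.62 ± 0.04), with a list median of 0.70 beside -0.02 for all genes. Of 6 DMRT relatives (median 0.05) Dmrtc2 (1.97 ± 0.06) and Dmrt2 (1.71 ± 0.06) were higher, and Dmrtc1a (-3.15 ± 0.14) and Dmrta1 (-2.54 ± 0.06) lower. Of 18 SOX relatives 2 were called higher and 4 lower (median 0.0023). Sox30, a gene of late male germ cells, was higher (2.07 ± 0.07), and Sox9 (-2.49 ± 0.07) and Sox8 (-2.40 ± 0.05), which act in Sertoli cells, were lower. Of 17 helix-loop-helix relatives 3 were called higher and 3 lower (median 0.05). Ascl2 (2.50 ± 0.08) was higher and Id2, an inhibitor of helix-loop-helix proteins, lower (-2.70 ± 0.09).

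Between the germ cell tags at 0 and 4h, 1 of the 7 differed by enough to be called. Dmrtb1 averaged 9.57 over 4 Ngn3 IP arrays and 8.24 over 4 Stra8 IP arrays, a difference of 1.33 ± 0.36 (adjusted p = 0.00881), where 0.0552% of all genes were called higher. At 0 it read 10.76 and 10.21 in Ngn3 IP, against 9.14 and 8.14 in Stra8 IP. The call was lost without Stra8 IP replicate 2 at 0 (1.08, adjusted p = 0.0995). Sox3 differed by 0.60 ± 0.09 (7.55e-06) and Sohlh1 by 0.59 ± 0.11 (1.94e-04), both under 2-fold. For Neurog3 (0.04 ± 0.16), Taf4b (-0.04 ± 0.14), Dmrt1 (0.09 ± 0.07) and Sohlh2 (0.45 ± 0.17) adjusted p-values ran from 0.0649 to 0.933.

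Over the labelled times after RA, which cannot be told apart from age, Neurog3 fell and Dmrtb1 rose in the germ cell fraction. These were the 2 of 7 called over the Stra8 IP course, where 10.8% of all genes were called in either direction. The other 5 differed by less than 2-fold from 0 at every time. Against time 0 none of the 7 was called at 4h, 12h, 24h or 48h, where 0.241%, 0.476%, 0.441% and 0.888% of all genes were. The calls were 1 of 7 at 4d (1.95% of all genes), 2 of 7 at 6d (5.98%) and 2 of 7 at 8d (7.39%).

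Dmrtb1 read 9.14 and 8.14 in Stra8 IP at 0, 7.71 and 7.98 at 4h, 8.62 and 8.18 at 12h, 9.27 and 8.97 at 24h, 9.38 and 10.09 at 48h, 11.16 and 11.22 at 4d, 10.31 and 10.96 at 6d and 9.61 and 11.17 at 8d. All arrays from 48h on lay above both arrays of time 0, and the highest single value was 11.22 at 4d. The difference from 0 was 2.55 ± 0.51 at 4d (5.86-fold, adjusted p = 1.44e-04), 1.99 ± 0.51 at 6d (0.00163) and 1.75 ± 0.51 at 8d (0.00526), and the course had an adjusted p of 2.77e-07. Without Stra8 IP replicate 2 at 0 the differences at 6d (1.49, adjusted p = 0.0768) and 8d (1.25, 0.149) were not called, and without replicate 2 at 8d that of 8d was 0.97 (0.259). At 48h the difference was 1.09 ± 0.51 (0.180), and it was called without the Stra8 total arrays labelled 4h (0.00868). From 48h to 4d Dmrtb1 rose by 1.46 ± 0.51 (adjusted p = 0.0362), the 1 call of 7 in that step, where 1.34% of all genes were called. That call was lost without either array of 4d (adjusted p = 0.126 and 0.129) or without replicate 1 at 48h (0.302).

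Neurog3 read 10.55 and 10.59 in Stra8 IP at 0, 10.89 and 10.83 at 4h, 10.66 and 10.33 at 12h, 10.34 and 9.87 at 24h, 9.70 and 9.83 at 48h, 9.29 and 10.09 at 4d, 9.19 and 9.21 at 6d and 8.96 and 8.72 at 8d. The highest arrays were those of 4h, and from 24h on all arrays lay below both of time 0. The difference from 0 was -0.81 ± 0.23 at 48h (adjusted p = 0.0127) and -0.89 ± 0.23 at 4d (0.00273), short of 2-fold, then -1.37 ± 0.23 at 6d (2.96e-06) and -1.73 ± 0.23 at 8d (1.56e-08), both called. At 4d it was -1.29 and called without replicate 2 (adjusted p = 2.56e-04), and -0.49 without replicate 1. The array with the lower value at 4d, replicate 1, also averaged 10.97 over the Sertoli cell markers, against 10.04 in replicate 2, and 9.19 over the macrophage markers, against 7.89, and the part of other cells in that value was not tested. In the later germ cell arrays Sertoli cell markers averaged 9.02 and 9.26 at 6d and 9.27 and 9.39 at 8d, against 9.89 and 10.45 at 0, and germ cell markers 10.93 and 11.03 at 8d, against 11.65 and 11.57 at 0.

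With all arrays Sohlh1 and Sohlh2 were each within 2-fold of time 0 throughout. Sohlh2 differed from 0 by 0.82 ± 0.23 at 6d, and by 1.01 without Stra8 IP replicate 1 at 0. Sohlh1 read 11.28 and 10.95 at 0, 10.91 and 10.96 at 4h, 11.67 and 11.44 at 12h, 11.48 and 11.46 at 24h, 11.25 and 11.38 at 48h, 10.77 and 10.82 at 4d, 10.95 and 11.09 at 6d and 10.29 and 10.34 at 8d. It was highest from 12h to 24h and lowest at 8d, by -0.80 ± 0.16 against 0 (adjusted p = 5.90e-05) and -0.70 ± 0.16 against 6d (8.76e-04). Sohlh2 read 10.91 and 10.52 at 0, 10.40 and 10.49 at 4h, 11.33 and 11.14 at 12h, 11.44 and 11.29 at 24h, 11.41 and 11.32 at 48h, 10.19 and 10.57 at 4d, 11.38 and 11.69 at 6d and 10.76 and 11.01 at 8d. Its values at 4d lay below those of 48h by 0.98, a step of -0.98 ± 0.23 (adjusted p = 0.00158) that did not reach 2-fold. It was called without replicate 2 at 48h (-1.03), without replicate 2 at 4d (-1.17) and with median centring (-1.01). From 4d to 6d Sohlh2 rose by 1.16 ± 0.23 (1.09e-04), the 1 call of 7 in that step, where 4.15% of all genes were called, and by 0.97 without Stra8 IP replicate 1 at 4d, short of 2-fold. Sertoli cell markers moved in these steps too, with 7 of 17 called higher from 48h to 4d (median 0.91) and 14 of 17 called lower from 4d to 6d (median -1.49), and their part in the steps of Sohlh2 and Dmrtb1 was not tested. From 6d to 8d none of the 7 was called, where 1.92% of all genes were, and Sohlh2 differed by -0.65 ± 0.23 (0.0415).

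Dmrt1, Sox3 and Taf4b were steadier in Stra8 IP. Dmrt1 spanned 11.72 to 12.38, was highest at 48h (12.31 and 12.38) and lowest at 8d (11.72 and 11.86), against 12.18 and 11.98 at 0, a difference at 8d of -0.29 ± 0.10 (adjusted p = 0.0173). Sox3 spanned 10.09 to 11.12 and read 10.09 and 10.23 at 8d, against 10.82 and 10.53 at 0 (-0.51 ± 0.13, 0.00157). Taf4b spanned 11.69 to 12.36 and read 12.36 and 12.29 at 8d, above every earlier Stra8 IP array, against 11.83 and 11.69 at 0 (0.57 ± 0.20, adjusted p = 0.0196). The course as a whole had an adjusted p of 1.99e-04 for Dmrt1, 1.42e-05 for Sox3 and 0.224 for Taf4b, and none of these reached 2-fold.

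**Figure D2:**
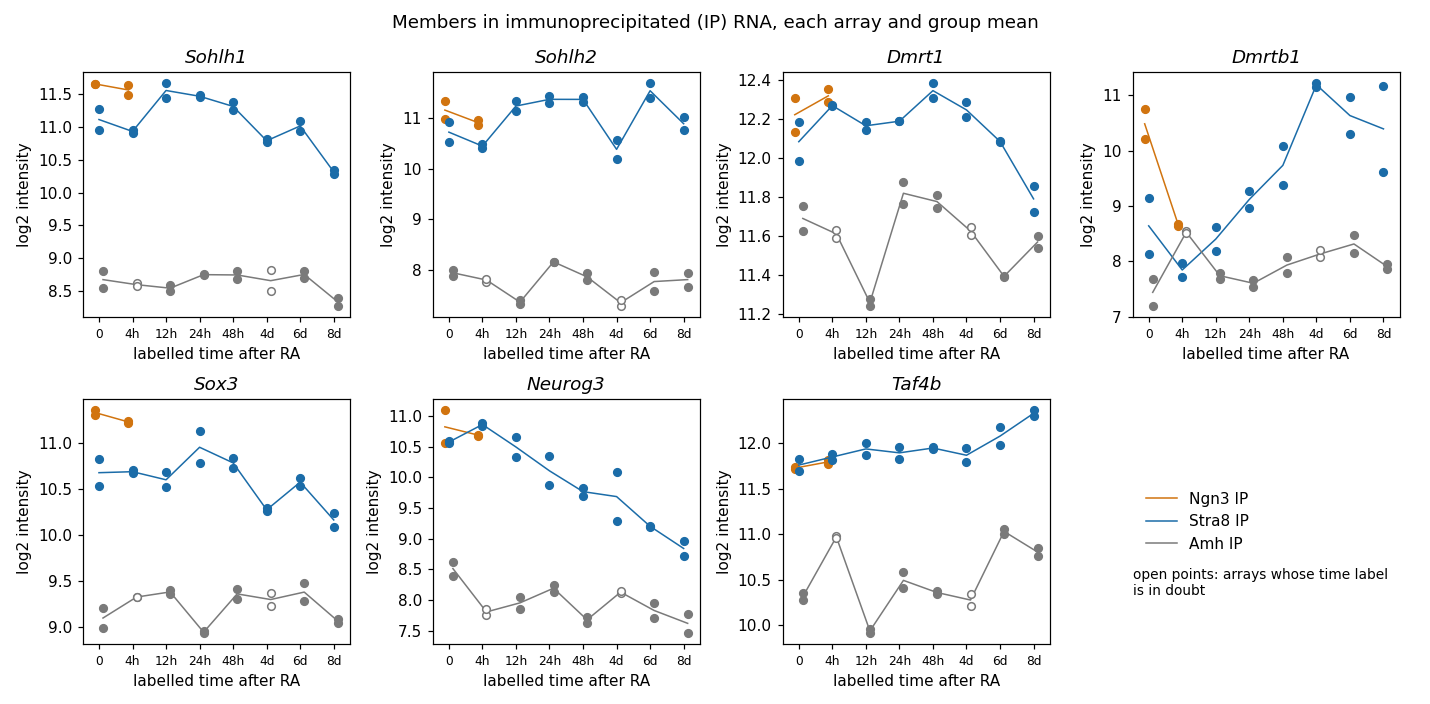
Log2 intensity of each of the 7 genes in every IP array by labelled time after RA (points) with group means (lines), for the Ngn3, Stra8 and Amh lines. Dmrtb1 reaches 11.16 and 11.22 in Stra8 IP at 4d, Neurog3 ends at 8.96 and 8.72, and open points mark Amh arrays labelled 4h and 4d.

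Genes of the same stages changed in larger numbers. Of 24 undifferentiated spermatogonia genes 17 fell over the Stra8 IP course and 0 rose (median -1.48, beside -0.08 for all genes), among them Gfra1, the receptor subunit for the niche factor GDNF (-2.03 ± 0.18 at 4d). Of 15 differentiating spermatogonia genes 6 rose and 1 fell (median 0.79), including Kit, the receptor that marks differentiating spermatogonia (2.24 ± 0.29 at 48h), and Esx1 (3.00 ± 0.33 at 6d). Of 25 meiotic entry and prophase genes 17 rose and 0 fell (median 1.54), led by Spo11, which makes the breaks that start recombination (4.00 ± 0.18 at 8d), and by Stra8 (3.56 ± 0.38 at 6d). In the order of labelled times the largest change of Kit stood at 48h, that of Dmrtb1 at 4d, that of Stra8 at 6d and those of Spo11 and Neurog3 at 8d. This order was not tested, and Dmrtb1 at 6d was not shown to differ from 4d (-0.56 ± 0.51, adjusted p = 0.482).

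Genes that studies in mice have named as targets of Sohlh1, Sohlh2, Dmrt1 or Sox3 changed both ways. Of 9 measured, 4 rose and 3 fell over the Stra8 IP course (median 0.56), and Nobox, an oocyte homeobox gene that is a target of the Sohlh factors in the ovary, rose by 1.90 ± 0.29 at 48h. Among relatives, Dmrtc2, needed in meiotic prophase, rose (1.99 ± 0.16 at 8d) while Dmrt2 fell (-1.61 ± 0.16 at 4d). Of 18 SOX relatives 2 rose and 3 fell, including Sox30 (1.66 ± 0.21 at 8d) and Sox9 (-1.33 ± 0.20 at 6d), which is also a Sertoli cell marker. Of 17 helix-loop-helix relatives 1 rose, Id2 (1.49 ± 0.24 at 4d), and 2 fell, Id4 (-1.36 ± 0.16) and Tcf4 (-1.25 ± 0.13), both at 6d. Sertoli cell markers, 9 of 17 of which fell and 1 of which rose over this course, moved beside the steps at 4d and 6d as given above, and their part in the changes of these relatives was not tested. Of 20 TFIID subunits and relatives 2 rose, Taf12 (1.49 ± 0.17) and Taf13 (1.14 ± 0.18), both at 6d.

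In the Ngn3 line, 4h after RA, Dmrtb1 was the 1 of the 7 called, and it fell. Ngn3 IP read 8.64 and 8.68 at 4h, against 10.76 and 10.21 at 0, a difference of -1.82 ± 0.51 (3.54-fold lower, adjusted p = 0.0433), where 0.311% of all genes were called. The call was lost in each of the 4 fits that left out 1 of these arrays (adjusted p from 0.0630 to 0.544) and with quantile normalization (-1.78, 0.0520). In Ngn3 total RNA Dmrtb1 read 7.59 and 7.79 at 4h, against 8.55 and 8.16 at 0 (-0.66 ± 0.51). In Stra8 IP it differed at 4h by -0.80 ± 0.51 (0.566), and the Ngn3 change was not shown to differ from the Stra8 one (-1.03 ± 0.72, adjusted p = 0.627). In that direct test no gene was called and 1991 of 19938 had an unadjusted p under 0.05. The other 6 genes differed by 0.07 to 0.25 in size in Ngn3 IP. Dmrt2 (1.66 ± 0.16), Stra8 (1.66 ± 0.38) and Gfra1 (1.05 ± 0.18) rose and Nobox fell (-1.65 ± 0.29) in the same comparison, and Kit differed by 0.24 ± 0.29.

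In total RNA Neurog3 fell, and Dmrtb1 and Taf4b rose, in both lines with arrays up to 8d, of which the Amh line had no total RNA analysed at 4h. In Stra8 total RNA 4 of the 7 were called over the course, where 6.9% of all genes were, and in Amh total RNA 3 of the 7, where 7.66% were. Neurog3 in Stra8 total RNA averaged 7.99 at 8d and 9.46 at 0 (-1.47 ± 0.20, adjusted p = 3.64e-08), and in Amh total RNA 8.03 and 10.05 (-2.02 ± 0.23, 6.74e-10). Taf4b, which was not called in Stra8 IP, read 11.75 and 11.73 at 8d in Stra8 total RNA, above all 4 arrays of time 0 (10.19 to 10.68), a rise of 1.27 ± 0.17 (3.51e-08), and it rose by 1.13 ± 0.20 at 8d in Amh total RNA (7.48e-06).

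Dmrtb1 in Stra8 total RNA rose by 2.39 ± 0.44 at 4d (adjusted p = 1.14e-04), with 10.08 and 9.79, against 7.12 to 7.81 over 4 arrays at 0. It was also called at the label 4h (2.23 ± 0.39), from replicates 2 and 3 of that label (10.81 and 11.10), while replicate 1 (7.42) lay in the range of time 0. In Amh total RNA its peak stood at 6d (10.23 and 9.75, against 7.40 and 7.22 at 0, a rise of 2.68 ± 0.51, 7.83e-05), and the arrays labelled 4d read 7.74 and 7.62. There the Dmrtb1 differences at 48h (1.15 ± 0.51, adjusted p = 0.155) and 8d (1.002 ± 0.51, 0.139) were not called. Both were called without the Stra8 total arrays labelled 4h (adjusted p = 0.00746 and 0.00714). Sohlh2 rose in Stra8 total RNA at 6d, with 10.48 and 10.58, against 8.49 to 8.69 at 0 (1.91 ± 0.20, 2.04e-10), and its differences there were called at 24h and 48h too (1.05 ± 0.17 and 1.01 ± 0.17). In Amh total RNA its largest difference was 0.98 ± 0.23 at 24h.

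**Figure D3:**
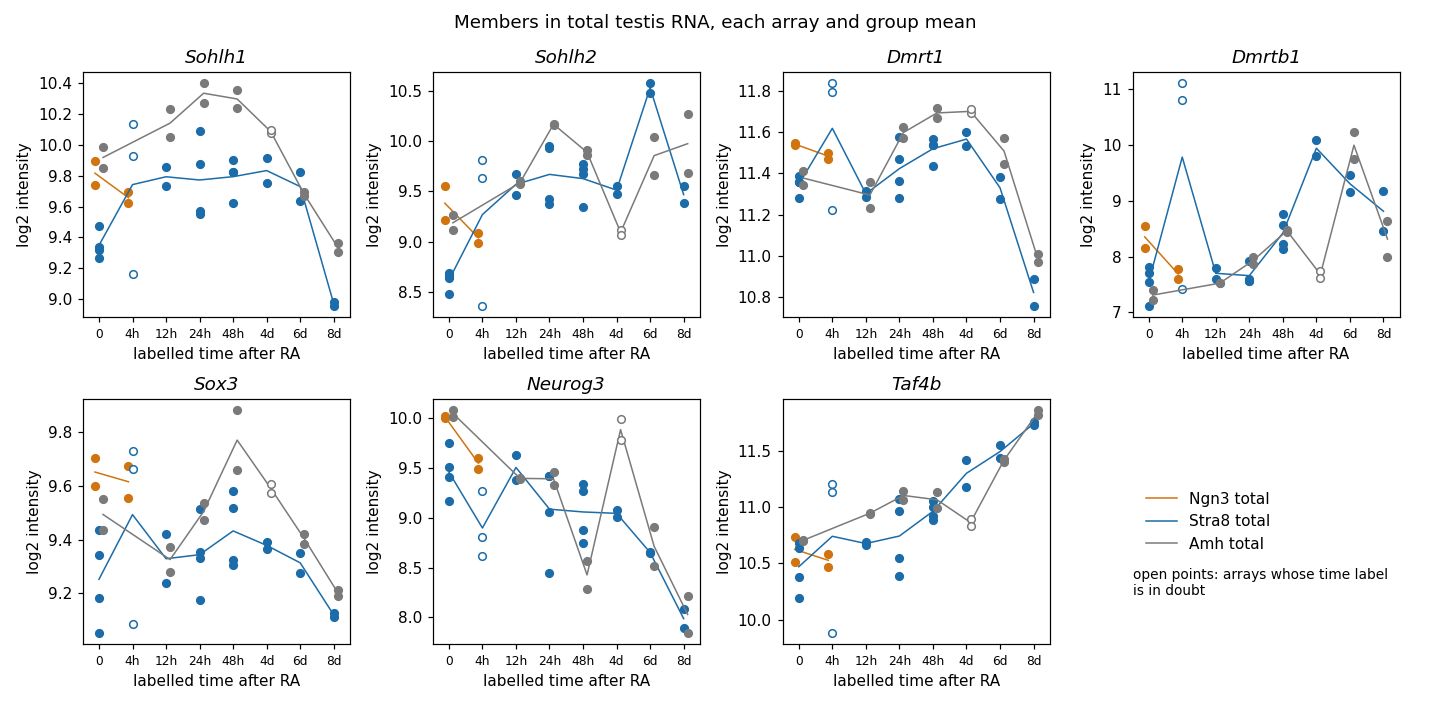
Log2 intensity of each of the 7 genes in every total RNA array by labelled time after RA (points) with group means (lines), for the Ngn3, Stra8 and Amh lines. Open points mark the Stra8 arrays labelled 4h, where Dmrtb1 reads 7.42, 10.81 and 11.10, and the Amh arrays labelled 4d.

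The gap between IP and total RNA of the Stra8 line was narrower late in the course for Taf4b, Sohlh2, Sohlh1 and Sox3, each by less than 2-fold. Comparing the mean gap at 4d, 6d and 8d with that at 0 to 48h, none of the 7 was called, where 0.426% of all genes were. The gap differed by -0.58 ± 0.14 for Taf4b (adjusted p = 0.00115), -0.58 ± 0.16 for Sohlh2 (0.00671), -0.48 ± 0.16 for Neurog3 (0.0232), -0.39 ± 0.11 for Sohlh1 (0.00728) and -0.30 ± 0.09 for Sox3 (0.0123), each under 2-fold. For Dmrt1 it was 0.03 ± 0.07. For Dmrtb1 the gap was wider late by 0.86 ± 0.36 (0.0762), and between 0.60 and 1.12 with 1 array left out. These values hold the Stra8 total arrays labelled 4h, where the Dmrtb1 gap was -1.94. Without that label the differences were 0.25 for Dmrtb1 (adjusted p = 0.460) and -0.28 for Neurog3 (0.220), while Taf4b, Sohlh2, Sohlh1 and Sox3 differed by -0.59, -0.70, -0.49 and -0.35 (adjusted p from 2.09e-06 to 8.80e-04). Sohlh2 stood 2.10 ± 0.20 above total RNA at 0 and 0.87 ± 0.23 at 4d.

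Amh IP RNA gave no call over its course, 0 of 7 where 7.62% of all genes were called. Neurog3 averaged 7.62 at 8d and 8.51 at 0 (-0.89 ± 0.23, adjusted p = 0.00180), and Taf4b 11.03 at 6d and 10.31 at 0 (0.72 ± 0.20, 0.00540). Dmrtb1 in the arrays labelled 4h read 8.54 and 8.51, against 7.19 and 7.68 at 0, and it was called in fits with a narrower spread. Over the same course 20 of 25 meiotic entry and prophase genes rose in Amh IP, whose list mean was 8.97 and 9.21 at 8d, against 7.74 and 7.82 at 0, and its part in the levels of the 7 genes was not tested. Meiotic entry and prophase averaged 11.25 and 11.24 in Stra8 IP at 8d.

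The change from time 0 was set directly between the Stra8 and Amh IP courses, and 2 of the 7 were called, where 18.7% of all genes were, so the members' share stood near the background. Sohlh2 differed most at 12h (1.09 ± 0.33, adjusted p = 0.00674), from 11.33 and 11.14 in Stra8 IP with 10.91 and 10.52 at 0, beside 7.41 and 7.33 in Amh IP with 7.89 and 8.00 at 0. The Sohlh2 difference was 0.90 without Stra8 IP replicate 2 at 0 and 0.996 without replicate 1 at 12h, neither called. Dmrtb1 differed most at the label 4h (-1.88 ± 0.72), which rests on the Amh arrays in doubt. With those arrays and the ones labelled 4d left out, its largest difference was 1.29, with the opposite sign, and was not called (adjusted p = 0.219).

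**Figure D4:**
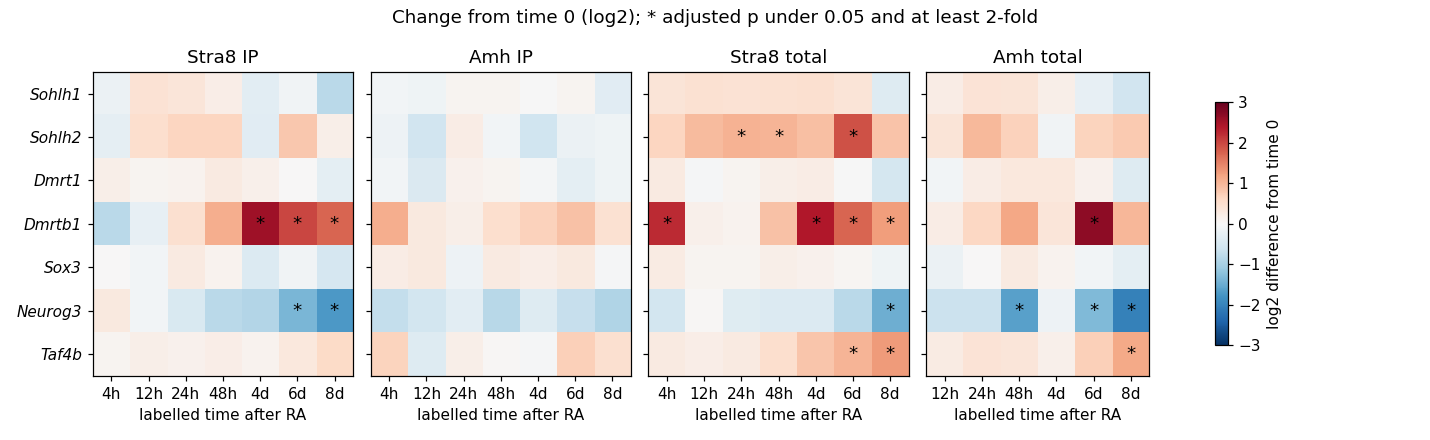
Log2 difference from time 0 of each of the 7 genes at each labelled time (columns) in Stra8 IP, Amh IP, Stra8 total and Amh total RNA, red for higher and blue for lower. Asterisks mark an adjusted p under 0.05 with at least a 2-fold difference, and in Stra8 IP they stand for Dmrtb1 at 4d (2.55), 6d (1.99) and 8d (1.75) and for Neurog3 at 6d (-1.37) and 8d (-1.73).

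The members' patterns across groups were compared by Pearson's r. Over the 35 group means, which differ foremost by fraction and line, Sohlh1 and Sohlh2 correlated at r = 0.918 and Sohlh1 and Sox3 at 0.900, while Dmrtb1 and Neurog3 stood at 0.144. Within the 16 Stra8 IP arrays Sohlh1 and Sohlh2 correlated at 0.526 and Sohlh1 and Sox3 at 0.799, and Dmrtb1 and Neurog3 at -0.788. The genes most like each member over the group means, among 10586 that spanned at least 1 log2 unit, were Abcc4, Reln and Henmt1 for Sohlh1 (r = 0.987 to 0.980) and Sh3bgrl2, Map7d2 and Tdrd12 for Sohlh2 (0.982 to 0.975). They were Psma5, Kat2a and Eef1d for Dmrt1 (0.938 to 0.919), Arhgef26, Runx3 and Esx1 for Dmrtb1 (0.915 to 0.886) and Isl1, Dnd1 and Wee2 for Sox3 (0.969 to 0.965). For Neurog3 they were Peli2, Asphd2 and Aff3 (0.958 to 0.954), and for Taf4b Dnajc2, Nupl1 and Rae1 (0.948 to 0.946).

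Within the Stra8 IP arrays alone the nearest patterns were others for most members. Neurog3 was followed most closely by Utf1 (r = 0.973), a gene of undifferentiated spermatogonia, and by Peli2 (0.951). Dmrtb1 was followed by Pgam5 (0.943) and Arhgef26 (0.939), Sohlh1 by Ap1g2 (0.975) and Abcc4 (0.938), and Sohlh2 by Kdm8 (0.950) and Clspn (0.927), which acts in the DNA replication checkpoint. Dmrt1 was followed by Imp3 and Rftn1 (0.886 and 0.884), Sox3 by Sgk1 and Kif26a (0.908 and 0.897) and Taf4b by Uap1 and Hspb11 (0.945 and 0.937). These correlations describe 16 arrays of 8 times, in which arrays of a time are not independent of one another.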

How the data were processed

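Per the submitters' processing notes the arrays were processed with RMA, and the deposited values are intensity on a linear scale from a 1-colour Affymetrix gene-level array. For its software and settings the sources used here give nothing. Per the labels' protocols, RNA was isolated on RNeasy columns, amplified with Ovation V2 and biotin-labelled with the Encore module.

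Values were put on a log2 scale and not scaled further. Of 28853 probe sets, 21789 were listed with 1 gene. For 999 genes with several, that of highest mean over all arrays stood for the gene, which left 19938 genes. Group means of all 35 groups were fitted together on the 77 arrays with limma 3.58.1 (R 4.3.3, tables read with data.table version 1.17.8) and moderated by empirical Bayes with a trend on intensity. Tests were two-sided. Courses were tested with moderated F, with the 2-fold minimum set on the largest of the differences from time 0. IP was set against total RNA as the mean over times with both. The fit was tested on simulated data.

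The 7 members, the gene lists and the tests were chosen with earlier results of these data known. Besides the members, the 3 genes most like each over group means and the 2 most like it over Stra8 IP arrays are named, with up to 4 called genes per list and Kit, Stra8 and Gfra1. Arrays have no count depth, and their number limits precision.

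Alternatives were quantile normalization, median centring, no fold minimum, leaving out the 30% of genes lowest in signal, averaging the probe sets of each gene, no intensity trend, 3 arrays of narrow range left out, the compared groups alone, the replicate number as a block, the Amh arrays labelled 4h and 4d left out, and each array left out in turn. Leaving out the Stra8 total arrays labelled 4h was chosen after seeing the data. Same-numbered IP and total arrays correlated in their residuals above 0.1 in all 7 pairs of the Amh line (0.12 to 0.57). They did so in 2 of 2 pairs of the Ngn3 line (0.23 to 0.25) and 4 of 8 pairs of the Stra8 line. The main fit did not take the numbers as pairs in any line. Pairing entered only through the replicate block among the alternatives, which was used in each line.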

Additional observations from a re-analysis of the deposited data

Results flagged for a closer look

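Dmrtb1 in Stra8 total RNA at 24h held an array far from the other 3. Replicate 2 read 7.92 and the others 7.59, 7.56 and 7.57, so its gap to the nearest was 0.903 of the range. This was 1 of 21 such tests on groups of 4, of which chance gives about 1 in 20, and the values lie within 0.4 log2 units.

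Sohlh2 differed between the Stra8 and Amh IP courses by 1.09 at 12h, from a direct test of the difference. Dmrtb1 differed between them by -1.88 at the label 4h, also by a direct test. That value rests on the Amh arrays labelled 4h, whose Rarb level (7.18 and 7.16) stood near that of time 0, and on a course whose sign changed with the arrays used.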

How the results depend on the processing

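With no fold minimum the counts of members called were 7 each for Stra8 IP and Ngn3 IP versus total and Stra8 IP versus Amh IP, 6 for Amh IP versus total, 3 for Ngn3 IP versus Stra8 IP, 6 each for the Stra8 IP and Stra8 total courses, 5 for the Amh IP course, 7 for the Amh total course, 13 of 49 for each time against 0 in Stra8 IP (5 otherwise), 9 of 21 for its late steps, 5 for late against early gaps and 7 for the Stra8 against Amh course. No share of all genes called with no fold minimum is given beside these counts, so they are not read as a result about the members. Median centring gave 4 calls for Stra8 IP versus total, 6 for Ngn3, 2 for Amh and 3 for the steps. Quantile normalization left 0 calls in Ngn3 IP at 4h, and gave 4 in the Amh total course and 3 in the Stra8 against Amh course. The Amh IP course had 1 call, Dmrtb1, without the 3 narrow arrays, with the compared groups alone, with the replicate block (1 call) and with the Stra8 total arrays labelled 4h left out. Late against early gaps had 1 call, Dmrtb1 (1.12), without the 3 narrow arrays. With the Amh arrays of the labels 4h and 4d left out, the Stra8 against Amh course had 1 call and Dmrtb1 reversed to 1.29. The cause of these changes was not tested. The replicate block changed no other count of member calls.

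Leaving out 1 array gave 3 to 4 calls for Stra8 IP versus total, 5 to 6 for Ngn3, 3 for Amh, 6 for Stra8 IP versus Amh IP, 0 to 1 for Ngn3 IP versus Stra8 IP, 2 to 3 for the Stra8 IP course, 0 to 1 for Amh IP, 4 for Stra8 total, 3 to 4 for Amh total, 3 to 6 for each time against 0, 0 for Ngn3 IP at 4h, 0 to 3 for the steps, 0 to 1 for late against early gaps and 1 to 3 for the Stra8 against Amh course. In the last, Dmrtb1 ranged from -2.39 to 2.36 and its largest difference was positive in 6 of 32 fits. Under the other settings, fits that left out 1 array not counted, 13 of 1126 single-gene values called neither way turned sign. Signs also turned with 1 array left out. Over the Stra8 IP course the largest difference ran from -0.66 to 0.42 for Sox3 and from -0.39 to 0.36 for Dmrt1. Signal near the array's floor limits low values.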
